A study of Mus musculus with 20 samples.

Results

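The genes of the cornified envelope and the epidermal differentiation complex were examined across acetone-treated skin, DNFB-treated skin, PBS-treated pancreas and caerulein-treated pancreas. Members were chosen by symbol alone: every gene whose name begins with Lce or Sprr and a digit, together with 17 named genes of late keratinocyte differentiation (Lor, Ivl, Flg, Flg2, Hrnr, Rptn, Tchh, Crnn, Tgm1, Tgm3, Cdsn, Dsg1a, Casp14, Asprv1, Cnfn, Sbsn and Krtdap). This rule found 55 of the 55471 genes in the count table, of which 21 were Lce genes and 17 were Sprr genes. In the granular layer of the epidermis, keratinocytes deposit small proline-rich proteins, involucrin and loricrin beneath the plasma membrane, and transglutaminases cross-link them into an insoluble envelope while filaggrin packs the keratin filaments inside. Lce proteins are added late, corneodesmosomes hold the dead cells together, and many of the genes lie side by side in a conserved cluster. Sprr genes are known as stress-responsive members of this set in injured and inflamed epidermis.

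The mice were wild type (WT), 4 to 6 weeks old at the start of the skin protocol, and each of the 4 groups had 5 libraries. DNFB is a contact allergen dissolved in acetone with olive oil. Mice were sensitized on the abdomen with 0.5% and then 0.25% DNFB and challenged on the back with 0.25% DNFB 3 times per week for 22 days, and the control skin received the acetone vehicle, after which epidermis was separated from the back skin. Caerulein, a peptide that overstimulates the enzyme-secreting acinar cells of the pancreas, was injected in PBS at 50 μg/kg, 6 times a day on 3 days per week for 3 weeks, and the control mice received PBS. Nothing in the labels says that the libraries of a group came from separate animals, so the p-values below measure the spread between these libraries.

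The libraries were shallow for these genes. Totals were 791543 to 2232086 expected counts, but 11 satellite-like predicted genes took 37.8 to 94.3% of them, and 93100 to 1074235 counts remained in acetone-treated skin, 150495 to 685910 in DNFB-treated skin, 70035 to 202126 with PBS and 88304 to 592146 with caerulein. Acetone libraries 11 and 12 were far deeper in usable counts than acetone libraries 1, 2 and 3. All levels below are normalized CPM, that is counts divided by a library size that edgeR scaled with TMM within each tissue. On this scale 1 count was worth 3.22, 2.84 and 1.78 in acetone libraries 1, 2 and 3, but 0.195 and 0.269 in acetone libraries 11 and 12, and 0.374 to 1.70 in the DNFB libraries. The Smart-Seq2 protocol uses no molecular identifiers, and counting floors therefore cover counting error only.

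The labelled tissues carried their markers, with gaps. The summed level of 6 basal keratinocyte markers was 213 to 2870 normalized CPM in acetone-treated and 155 to 2164 in DNFB-treated skin, and at most 15.7 in pancreas. Pancreatic acinar markers summed to 573 to 66694 in pancreas and to at most 40.2 in skin. Loricrin (Lor), a major precursor of the cornified envelope, was nearly absent from skin, with 4, 0, 0, 1 and 0 counts in the acetone libraries and 1, 1, 7, 6 and 1 in the DNFB libraries. Markers of other cells were present in the epidermis as well, with 6 inner root sheath keratins of the hair follicle at 9.67 to 1258, dermal fibroblast markers at 110.4 to 639 and skeletal muscle markers at 58.9 to 256 over the 10 skin libraries. In such bulk samples fewer cells of a type and less RNA per cell cannot be told apart.

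Of the members, 46 lay on chromosome 3 within 1369 kb (chr3:92080271-93449077, GRCm38), in the order Lor, Sprr2, Sprr1 with Sprr3 and Sprr4, Ivl, Lce and the fused S100 genes, and 9 lay elsewhere. Their levels were uneven along the cluster. In acetone-treated skin, Sprr2a1, Sprr2a2, Sprr1a and Ivl stood out on one side and the fused S100 genes on the other, and the 21 Lce genes between them had no more than 4 counts in any library. Across all 55 members, 32 did not exceed 3 counts in any acetone library and 12 were at 0 in all of them, against 21 and 1 in DNFB-treated skin. The same counts were not made over all genes, so no gain of these genes with DNFB is read from them.

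**Figure D1:**
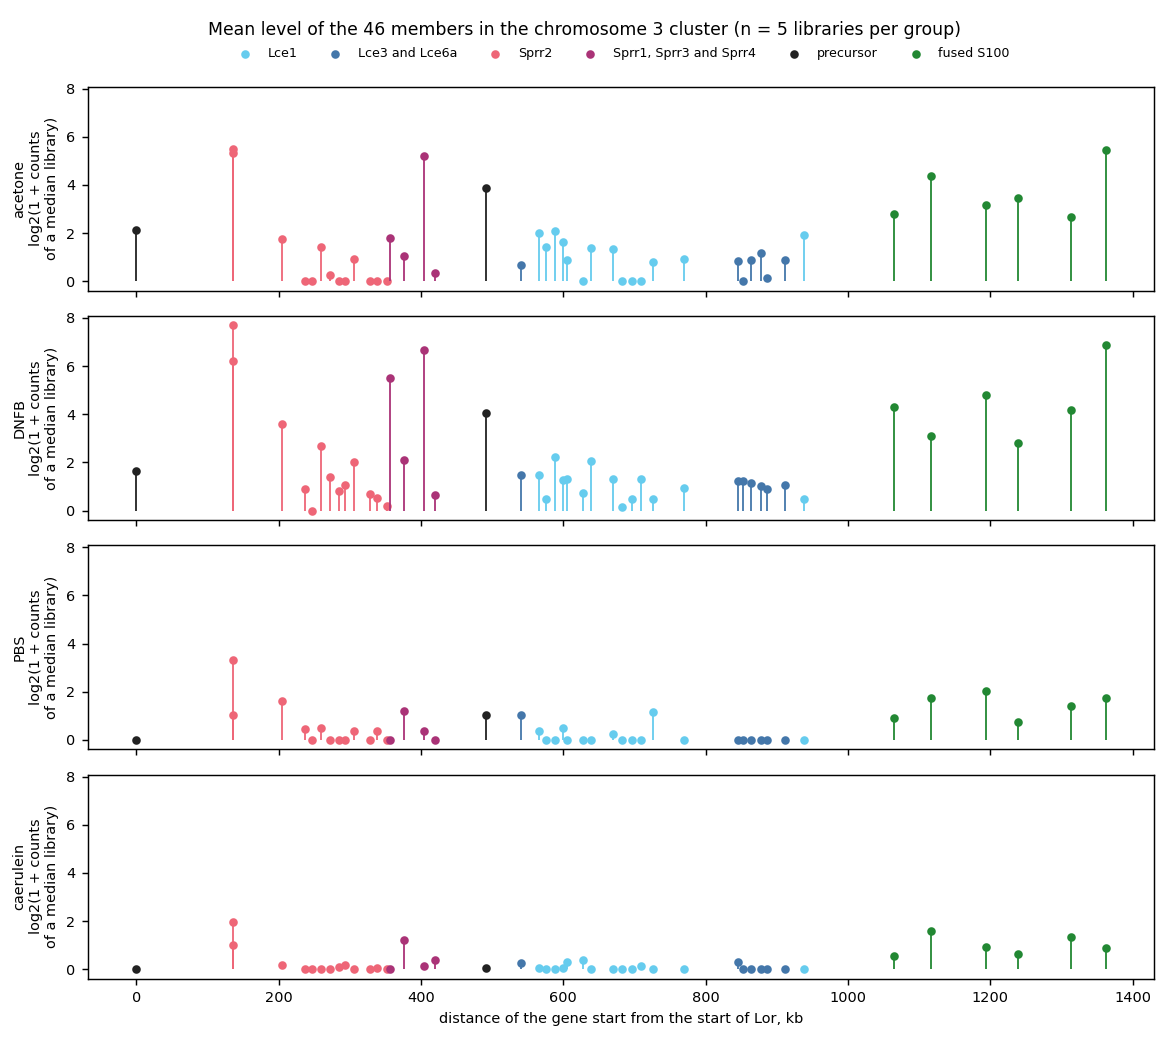
Mean level of the 46 chromosome 3 members in each group, on a log2 scale in counts of a median library of the tissue plus 1, against the distance of the gene start from the start of Lor in kb; colours mark gene families and each point is the mean of 5 libraries. The fused S100 genes, Sprr1a, Sprr2a1 and Sprr2a2 are drawn higher in the panels of skin than in those of pancreas. Each tissue has its own scaling, so heights do not compare directly between skin and pancreas. In the fit of all 20 libraries, acetone-treated skin against PBS-treated pancreas gave log2 fold changes of -0.72 for Sprr2a3 and -0.30 for Flg. Several other Sprr genes are at or near 0 in acetone-treated skin and pancreas alike, and the Lce genes stay low in all 4 panels.

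The members took a small part of the usable counts. They held 0.0802 to 0.365% of the counts outside the satellite-like genes in acetone-treated skin and 0.139 to 0.566% in DNFB-treated skin, ranges that overlapped. PBS-treated pancreas had 0.00934 to 0.0404% and caerulein-treated pancreas had 0.00688 to 0.0283%. Every skin library was above every pancreas library by this measure, which does not depend on the TMM scaling.

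**Figure D2:**
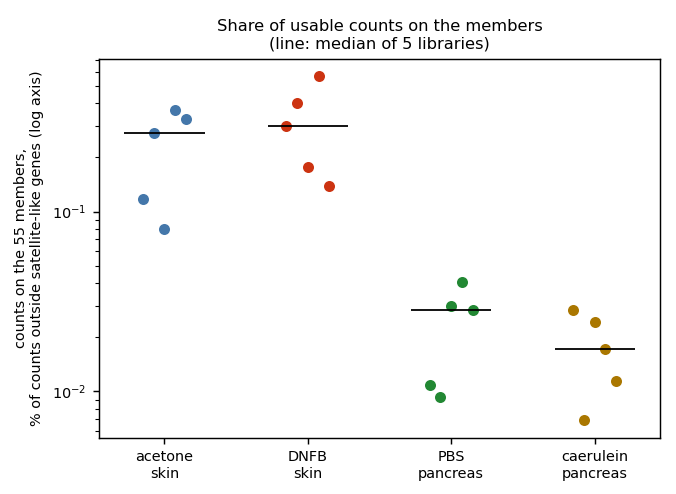
Share of the counts outside satellite-like genes that fell on the 55 members, in percent on a log axis, for each of the 20 libraries with a line at the median of each group. The 10 skin libraries lie between 0.0802 and 0.566% and the 10 pancreas libraries between 0.00688 and 0.0404%.

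The comparison of DNFB with acetone asked how the envelope genes stood after repeated contact allergy. Among the members tested, Sprr2a2 and Flg had the highest fold changes and Dsg1a, Krtdap and Sbsn the most negative, but none passed the adjusted threshold. Sprr1b, whose counts failed the filter, was the one member whose DNFB libraries all lay above every acetone library. The lowest DNFB and highest acetone values were close, at 6.69 and 6.44 normalized CPM. Of the 55 members, 15 passed the filter (7265 genes tested in all). Among these, 0 were higher (background 0.0275% of all genes tested) and 0 lower (background 0.0138%) at an adjusted p under 0.05 in edgeR's quasi-likelihood test. At an unadjusted p under 0.05, 2 were higher (Sprr2a2 and Flg, background 2.95%) and 1 was lower (Dsg1a, background 2.86%). Positive fold changes were found in 10 of the 15, or 66.7%, against 51.7% of all genes tested. The median log2 fold change of the 15 was 0.53, within a range from -1.85 to 2.21, and that of all genes tested was 0.02. No tested member had groups that did not overlap (background 0.564% higher and 0.688% lower). These backgrounds cover the 7265 genes tested, and no such share was taken over genes that failed the filter, as Sprr1b did.

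**Figure D3:**
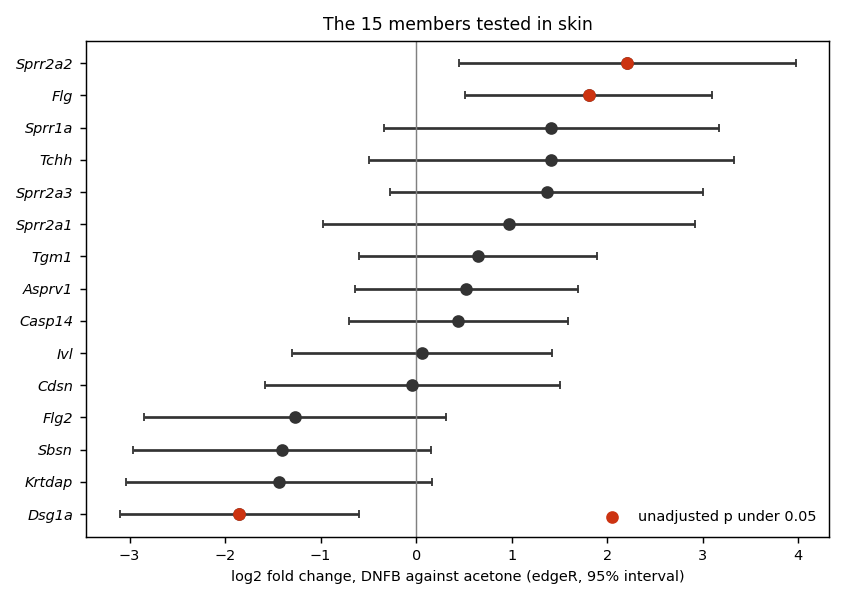
Log2 fold change of DNFB against acetone for the 15 members that passed the count filter in skin, from edgeR, with 95% intervals; red marks an unadjusted p under 0.05. The intervals of Sprr2a2 (0.45 to 3.97), Flg (0.51 to 3.10) and Dsg1a (-3.11 to -0.60) exclude 0, and the other 12 include it.

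The small proline-rich proteins are flexible cross-bridges of the envelope. Values below are given for acetone libraries 1, 2, 3, 11 and 12 and then for DNFB libraries 4, 5, 6, 13 and 14, in that order. Sprr1b (ENSMUSG00000048455, chr3:92436809-92438789, minus strand) had normalized CPM of 6.44, 0, 0, 1.76 and 1.34 with acetone and of 12.5, 61.1, 11.2, 83.4 and 6.69 with DNFB. All 5 DNFB libraries exceeded all 5 acetone libraries, although the lowest of them, 6.69 from 6 counts in DNFB library 14, was close to the highest control, 6.44 from 2 counts in acetone library 1. The means were 1.91 ± 2.66 and 35.0 ± 35.0 (SD, n = 5 each), a ratio of 18.3, which became 45.2 without acetone library 1 and 11.99 without DNFB library 13. A two-sided exact permutation test gave p = 0.00794, the smallest that 5 against 5 libraries allow, in 39 such tests on members outside the filter. Without the count filter edgeR gave a log2 fold change of 4.12 (SE 0.89, adjusted p = 0.00322), in a fit that called 0.0925% of all genes higher. DESeq2 gave 4.34 (SE 0.87, adjusted p = 0.00089), with 0.164% of all genes called higher. In fits with the filter, Sprr1b passed it only when some libraries were left out. It then passed through its DNFB libraries, since no acetone library had more than 9 counts, so the next calls carry no support. Sprr1b was called without acetone library 3 (edgeR adjusted p = 0.0431) or DNFB library 14 (adjusted p = 0.0478), and not without acetone library 1, 2, 11 or 12 (edgeR adjusted p = 0.106, 0.211, 0.155 and 0.301) or in libraries 1 to 10 alone (0.423).

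Its neighbour Sprr1a, of the same subfamily, was at 6.44, 22.7, 1.78, 60.9 and 46.7 with acetone and at 41.1, 23.8, 35.9, 259.7 and 29.0 with DNFB. DNFB library 13 stood far above the rest, and the other 4 lay within the range of the controls. The log2 fold change was 1.42 (SE 0.83, adjusted p = 0.905), and 0.13 without DNFB library 13. Sprr3 and Sprr4 were scarce, at no more than 6 counts in any skin library.

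The Sprr2a genes need care because their coding sequences are nearly the same. Their coding sequences, of equal length in GENCODE M21 on GRCm38, are shown because reads inside them are hard to tell apart. All annotated exons together span 3003, 2910 and 2883 bases, and the part outside the coding sequences was not compared. Capitals mark the 3 positions at which the coding sequences differ.
Sprr2a1 (chr3:92219092-92219343, plus strand): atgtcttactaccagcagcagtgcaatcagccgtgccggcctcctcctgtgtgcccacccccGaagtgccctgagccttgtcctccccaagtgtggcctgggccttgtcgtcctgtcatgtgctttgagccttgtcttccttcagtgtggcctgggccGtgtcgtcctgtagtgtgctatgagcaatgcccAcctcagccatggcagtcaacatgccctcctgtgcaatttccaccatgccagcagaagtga
Sprr2a2 (chr3:92253905-92254156, plus strand): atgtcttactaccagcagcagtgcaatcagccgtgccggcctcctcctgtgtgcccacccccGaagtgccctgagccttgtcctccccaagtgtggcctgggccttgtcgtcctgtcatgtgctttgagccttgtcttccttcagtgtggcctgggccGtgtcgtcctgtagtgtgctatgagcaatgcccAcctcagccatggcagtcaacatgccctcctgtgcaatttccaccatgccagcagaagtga
Sprr2a3 (chr3:92288588-92288839, plus strand): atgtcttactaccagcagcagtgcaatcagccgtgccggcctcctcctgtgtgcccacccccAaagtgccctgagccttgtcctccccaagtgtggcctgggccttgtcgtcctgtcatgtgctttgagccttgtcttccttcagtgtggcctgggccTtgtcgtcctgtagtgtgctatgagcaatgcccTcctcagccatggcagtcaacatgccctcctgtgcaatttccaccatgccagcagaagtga
Sprr2a1 and Sprr2a2 have the same coding sequence (100% identity), Sprr2a3 shares 98.8% with each, and the annotated span of Sprr2a2 overlaps Sprr2a1. Values above 0 were not whole in 84.6% of cases for Sprr2a1, 76.5% for Sprr2a2 and 100% for Sprr2a3, against 12.8% over all genes, so the reads were divided between them by estimation and the split is uncertain.

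Sprr2a2 was at 3.22, 82.3, 12.5, 12.7 and 61.8 with acetone and at 159.6, 411, 56.4, 126 and 50.2 with DNFB. DNFB libraries 4, 5 and 13 were above every control. The log2 fold change was 2.21 (SE 0.84, edgeR unadjusted p = 0.017, adjusted p = 0.711). It ranged from 1.55 to 2.71 when each library was left out, and the unadjusted call was lost without DNFB library 5. Sprr2a1 was at 35.4, 93.7, 14.2, 2.73 and 6.71 with acetone and at 22.6, 178, 6.73, 31.7 and 43.5 with DNFB, a log2 fold change of 0.97 (SE 0.92, adjusted p = 0.965). It was 0.02 without DNFB library 5 and 2.15 without acetone library 2, the highest libraries of their groups. Sprr2a3 was at 0, 0, 0, 3.51 and 5.64 with acetone and at 8.34, 20.4, 4.11, 10.2 and 0 with DNFB, a log2 fold change of 1.37 (SE 0.78, adjusted p = 0.896). The 3 genes summed as 1, a choice made after the data were seen, gave a log2 fold change of 1.77 (SE 0.79, edgeR unadjusted p = 0.0384, adjusted p = 0.80).

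The other Sprr2 genes were found at a few counts. Over the 13 Sprr2 members, 6 had any count in acetone-treated skin and 12 in DNFB-treated skin. The share of all genes with any count was not taken, so this is a description only. Sprr2e, chosen here after its values were seen, was at 0, 0, 0, 0 and 3 counts with acetone and at 1, 1, 2, 3 and 2 counts with DNFB (exact permutation p = 0.0238 on normalized values). Sprr2f, likewise, was at 0 counts in every acetone library and at 1, 0, 1, 2 and 1 counts with DNFB. Its exact permutation p was 0.0476, and 3 of 39 such tests in skin were under 0.05. Sprr2e and Sprr2f both lie at or under a floor of 3 counts in every library, so no fold is given. Summed, the Sprr2 genes reached 18.9 to 176 in the acetone libraries and 69.9 to 635 in the DNFB libraries.

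The fused S100 genes encode large proteins of the granular layer and hair follicle. Filaggrin (Flg), which bundles keratin and is broken down to moisturizing amino acids, was at 12.9, 0, 7.12, 7.61 and 3.22 with acetone and at 43.5, 17, 10.1, 20.8 and 12.3 with DNFB. DNFB libraries 4, 5 and 13 were above every control, and the other two lay below acetone library 1, whose 12.9 rests on 4 counts. The means were 6.17 ± 4.87 and 20.7 ± 13.4 (SD, n = 5 each). The log2 fold change was 1.81 (SE 0.61, edgeR unadjusted p = 0.00899, adjusted p = 0.606), and it stayed between 1.33 and 2.03 when each library was left out.

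Filaggrin-2 (Flg2), a relative of filaggrin, had the opposite sign. It was at 45.1, 5.68, 17.8, 5.27 and 3.49 with acetone and at 3.57, 5.10, 2.99, 3.13 and 14.5 with DNFB. Most libraries of both groups lay between 2.99 and 5.68, and acetone library 1 stood above the rest on 14 counts. The log2 fold change was -1.27 (SE 0.75, adjusted p = 0.905) and -0.41 without acetone library 1.

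Trichohyalin (Tchh), the matrix protein of the inner root sheath of hair, was at 22.6, 11.4, 17.8, 94.8 and 18.3 with acetone and at 66.7, 1.70, 119, 254 and 12.3 with DNFB. The DNFB libraries held both the lowest and the highest values. The log2 fold change was 1.41 (SE 0.91, adjusted p = 0.938), 0.56 without DNFB library 13 and 2.44 without acetone library 11. Its relation to the keratins of the hair follicle is given below.

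Repetin (Rptn), an envelope precursor, was at 9.67, 0, 8.90, 1.76 and 0.81 with acetone and at 5.36, 25.5, 8.22, 15.3 and 11.2 with DNFB. The groups overlapped (exact permutation p = 0.0635). Without the count filter edgeR gave a log2 fold change of 1.99 (unadjusted p = 0.00657, adjusted p = 0.444), and DESeq2 gave 2.04 (unadjusted p = 0.00487, adjusted p = 0.413). Cornulin (Crnn) was at 0, 2.84, 5.34, 11.5 and 3.22 with acetone and at 11.9, 1.70, 9.34, 46.2 and 4.46 with DNFB (exact permutation p = 0.222). Hornerin (Hrnr), a filaggrin-like protein, was at 22.6, 8.52, 3.56, 2.73 and 1.34 with acetone and at 1.19, 11.9, 2.99, 2.74 and 4.46 with DNFB (exact permutation p = 0.635). The 6 fused S100 genes therefore did not share a sign.

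Krtdap and Sbsn encode secreted proteins of differentiating keratinocytes and lie near each other on chromosome 7. Krtdap was the most abundant member of acetone-treated skin per kb of exon, at 220.4 normalized CPM per kb, followed by Sbsn at 36.5 and Sprr1a at 34.4. In DNFB-treated skin the same measure put Sprr1a first at 96.6, Krtdap next at 81.3 and then Sprr2a2 at 55.2. Without DNFB library 13 the DNFB order became Krtdap at 64.3, Sprr2a2 at 58.2 and Sprr1a at 40.2, and by medians Krtdap was first as well, at 78.0. These orders are descriptions, since the spread between libraries was as large as most means. They also depend on the annotation, since all annotated exons of a gene were counted as its length. That length was 2910 bases for Sprr2a2, 806 for Sprr1a and 679 for Krtdap, and a shorter Sprr2a2 transcript would move it up.

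Krtdap was at 41.9, 315, 16, 169 and 206 with acetone and at 53.0, 76.4, 26.2, 101 and 19 with DNFB. Acetone libraries 2, 11 and 12 were above every DNFB library, and acetone library 3 was the lowest of all. The log2 fold change was -1.44 (SE 0.76, edgeR unadjusted p = 0.0752, adjusted p = 0.884). Sbsn was at 12.9, 185, 37.4, 179 and 248 with acetone and at 39.3, 62.8, 37.0, 95.6 and 16.7 with DNFB. The pattern was the same, with acetone library 1 the lowest of the 10 and a log2 fold change of -1.40 (SE 0.74, adjusted p = 0.884).

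Corneodesmosomes join corneocytes until they are shed. Dsg1a, a desmosomal cadherin, was at 19.3, 153, 28.5, 78.4 and 79.5 with acetone and at 14.3, 20.4, 14.2, 31.3 and 19 with DNFB. DNFB libraries 4, 6 and 14 were below every control. The means were 71.8 ± 53.3 and 19.8 ± 7.0 (SD, n = 5 each), with a log2 fold change of -1.85 (SE 0.59, edgeR unadjusted p = 0.00626, adjusted p = 0.606). The change stayed between -2.10 and -1.43 when each library was left out. Dsg1a has close paralogs, and 62.5% of its values above 0 were not whole, so part of its count was divided by estimation. Corneodesmosin (Cdsn), which coats the junction, was at 0, 8.52, 7.12, 41.8 and 58.8 with acetone and at 14.3, 15.3, 15.3, 67.4 and 11.2 with DNFB. Its controls split into low libraries 1, 2 and 3 and high libraries 11 and 12, and its log2 fold change was -0.04 (SE 0.73, adjusted p = 0.997).

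Among the classical precursors, involucrin (Ivl), an early scaffold of the envelope, was at 0, 8.52, 5.34, 21.1 and 18 with acetone and at 11.3, 5.10, 20.6, 21.5 and 2.23 with DNFB. The groups overlapped almost fully, with a log2 fold change of 0.06 and a 95% interval from -1.30 to 1.42. Cornifelin (Cnfn) was at 19.3, 8.52, 0, 4.29 and 2.95 with acetone and at 4.17, 5.10, 5.23, 34.9 and 4.46 with DNFB (exact permutation p = 0.46). Loricrin was given above. None of these 3 genes separated the groups.

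The late cornified envelope (Lce) genes encode small precursors that join the envelope last. Any count was seen for 16 of the 21 in acetone-treated skin and for all 21 in DNFB-treated skin, without a share over all genes to set beside them. No Lce gene passed the filter. Summed over the family, each acetone library held 2 to 15 counts and each DNFB library 15 to 54. On the normalized scale the sums were 0.537 to 48.3 with acetone and 9.53 to 35.7 with DNFB, which overlapped. The highest single value was 7.99 counts, so differences between single Lce genes were not detectable at this depth.

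The enzymes cross-link envelope proteins or process filaggrin. Asprv1, a protease that trims profilaggrin, was at 9.67, 17, 5.34, 31.2 and 27.1 with acetone and at 31.0, 5.10, 28.4, 35.3 and 37.9 with DNFB. DNFB libraries 13 and 14 were above the highest control and DNFB library 5 was the lowest of the 10, with a log2 fold change of 0.53 (95% interval -0.64 to 1.69). Casp14, a protease of the cornifying layer that degrades filaggrin, was at 9.67, 5.68, 7.12, 24.4 and 18.3 with acetone and at 45.2, 17, 8.22, 14.9 and 12.3 with DNFB, with a log2 fold change of 0.44 (95% interval -0.71 to 1.59). Tgm1, the membrane-bound transglutaminase, was at 3.22, 0, 3.56, 6.83 and 5.10 with acetone and at 7.74, 3.40, 8.22, 13.3 and 1.12 with DNFB, with a log2 fold change of 0.65 (95% interval -0.60 to 1.89). Tgm3 had 0 to 13 counts per skin library and did not pass the filter. Positive fold changes in this group were smaller than their intervals.

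**Figure D4:**
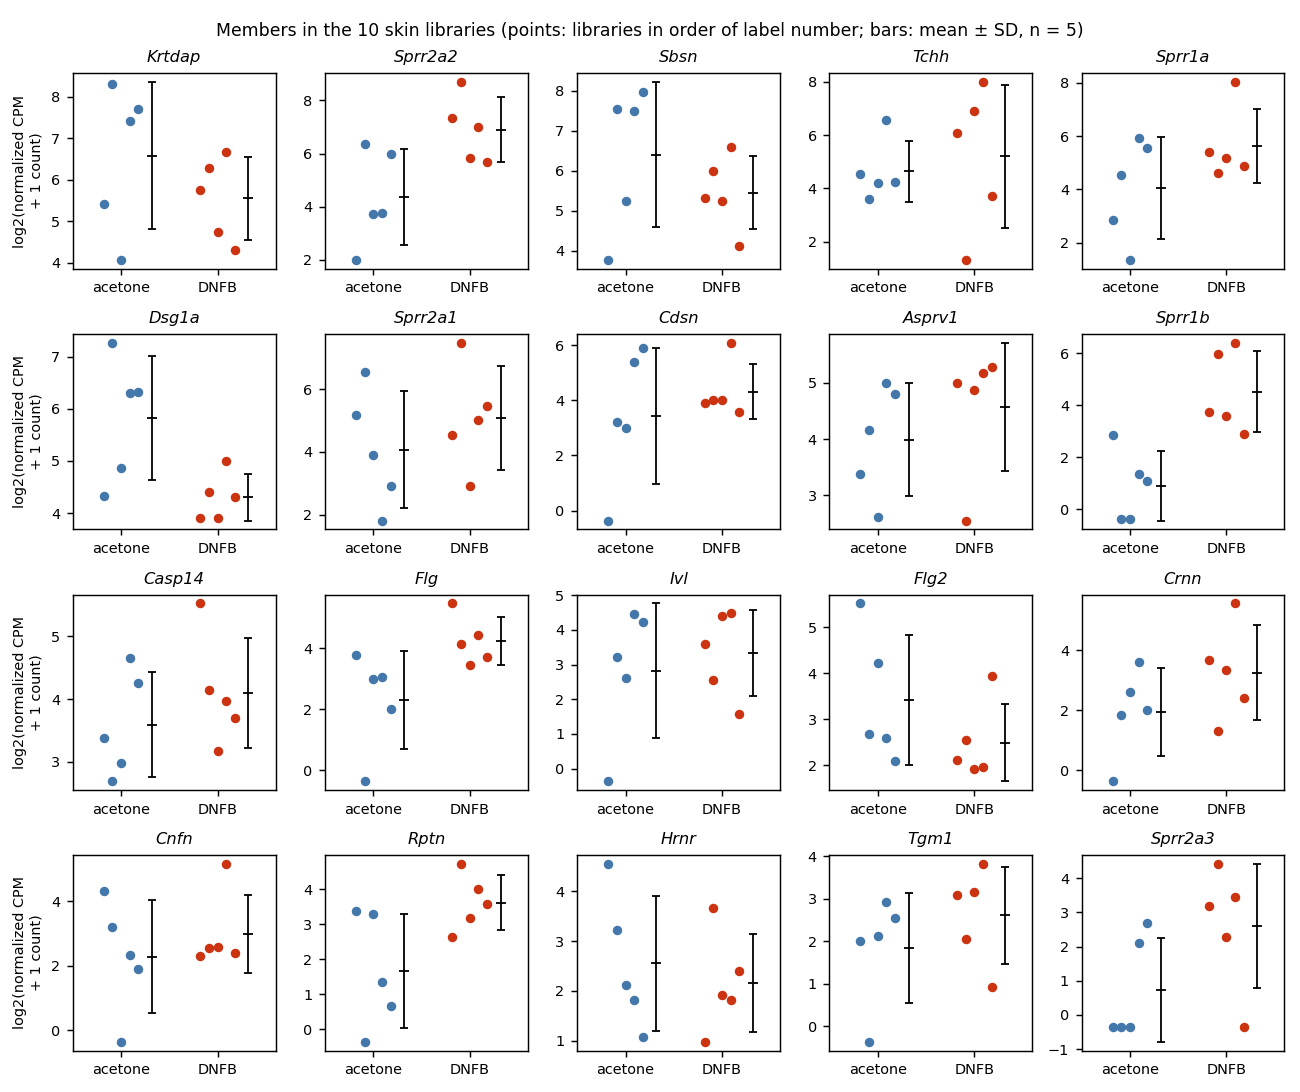
Levels of the 20 members with the highest mean in skin, as log2 of normalized CPM plus 1 count of the median library, for acetone libraries 1, 2, 3, 11 and 12 (blue) and DNFB libraries 4, 5, 6, 13 and 14 (red), with mean ± SD (n = 5) in black. Only Sprr1b shows groups that do not overlap, and DNFB library 13 is the highest library for 8 of the 20 members.

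Other genes of the envelope, taken from lists outside the rule, had log2 fold changes from -1.87 to 2.16, and none passed the adjusted threshold. Of 17 further envelope precursors and bound proteins found in the table, 14 were tested and 0 passed the adjusted threshold. At an unadjusted p under 0.05, 1 (Scel, sciellin, log2 fold change -1.87, edgeR adjusted p = 0.782) was lower (background 2.86%). Among 18 further enzymes, 9 were tested and 1 was higher at the unadjusted threshold (background 2.95%). That was Tgm2, the tissue transglutaminase, at 3.6 ± 3.53 and 19.9 ± 13.8 normalized CPM (SD, n = 5 each) and a log2 fold change of 2.16 (adjusted p = 0.606). Of 20 transcription regulators of terminal differentiation, 13 were tested and 0 passed either threshold. Among the 13, 1 had a positive fold change, against 51.7% of all genes tested. The median log2 fold change was -0.05 for the precursors, 0.36 for the enzymes and -0.36 for the regulators, beside 0.02 for all genes tested.

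Keratins of other epidermal states showed wider differences. Of 7 genes of hyperproliferative epidermis, 6 were tested, all with positive fold changes, against 51.7% of all genes tested. At an unadjusted p under 0.05, 4 were higher (background 2.95%), although 0 passed the adjusted threshold. The summed level of the 7 genes was 35.6 to 477 with acetone and 189 to 4741 with DNFB, ranges that overlapped. DNFB libraries 5 and 13 were the highest, at 2663 and 4741, and DNFB library 14 was the lowest of its group. Krt6a, Krt6b and Krt16, keratins of wounded or proliferating epidermis, had log2 fold changes of 4.28, 4.90 and 4.72, and Stfa3, a cysteine protease inhibitor, had 2.87. Of 6 suprabasal markers 3 were tested, and Krt77 was lower (log2 fold change -7.34, SE 1.11, edgeR adjusted p = 0.031, background 0.0138%). Its means were 265.9 ± 252.5 normalized CPM in the acetone libraries and 1.46 ± 1.44 in the DNFB libraries (SD, n = 5 each). Krt77 passed the filter through its acetone libraries, so this call carries no support. No gene was lower at the adjusted threshold without acetone library 2 or 12, or without DNFB library 5 or 13. Krt10 had a log2 fold change of -1.52 and Krt1 of 0.08, neither past a threshold. Of 5 basal markers tested, Krt15, Col17a1 and Itga6 were lower at the unadjusted threshold, with log2 fold changes of -2.99, -2.36 and -1.30. Krt5 had -1.01 and Krt14 had 0.40. The background for the basal, fibroblast and leukocyte lists, as the share of all genes tested that was lower at this threshold, was 2.86%. Of 5 fibroblast markers tested, the dermal collagens Col1a1, Col1a2 and Col3a1 were lower at that threshold too, at -1.92, -1.86 and -1.88. Of 3 leukocyte markers tested, Lyz2 and Cd74 were lower at -2.05 and -1.75 and Ptprc had 0.91, and the summed leukocyte level was 543 and 834 in acetone libraries 11 and 12, 49.8 to 76.7 in the other acetone libraries and 48.8 to 176 with DNFB. Summed levels of fibroblast markers were 139 to 639 with acetone and 110.4 to 187 with DNFB, and those of inner root sheath keratins 9.67 to 1258 and 78.1 to 1233. Hair shaft keratins summed to 2.84 to 408 with acetone and 44.2 to 831 with DNFB, sebaceous markers to 65.9 to 193 and 59.1 to 143, and muscle markers to 83.8 to 256 and 58.9 to 175. The part of these cells in the members' values was not tested.

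Across the 10 skin libraries 3 members were set against the marker list closest to them in role. The pairs were chosen after the values were seen, so the correlations are a description with no test. Tchh against the summed inner root sheath keratins had Pearson's r = 0.69 and Spearman's rho = 0.76, with r = 0.89 without acetone libraries 1 and 2, the farthest from the median, and 0.70 after the group means were removed. Sprr1b against the genes of hyperproliferative epidermis had r = 0.84 and rho = 0.79, with r = 0.68 without acetone library 3 and DNFB library 13 and 0.71 within groups. Krtdap against the suprabasal markers had r = 0.81 and rho = 0.83, with r = 0.66 without acetone libraries 2 and 12 and 0.79 within groups. In the 6 libraries with label numbers 1 to 10, r was 0.60, 0.87 and 0.81 for the 3 relations, and the 4 libraries with numbers 11 to 20 were too few.

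**Figure D5:**
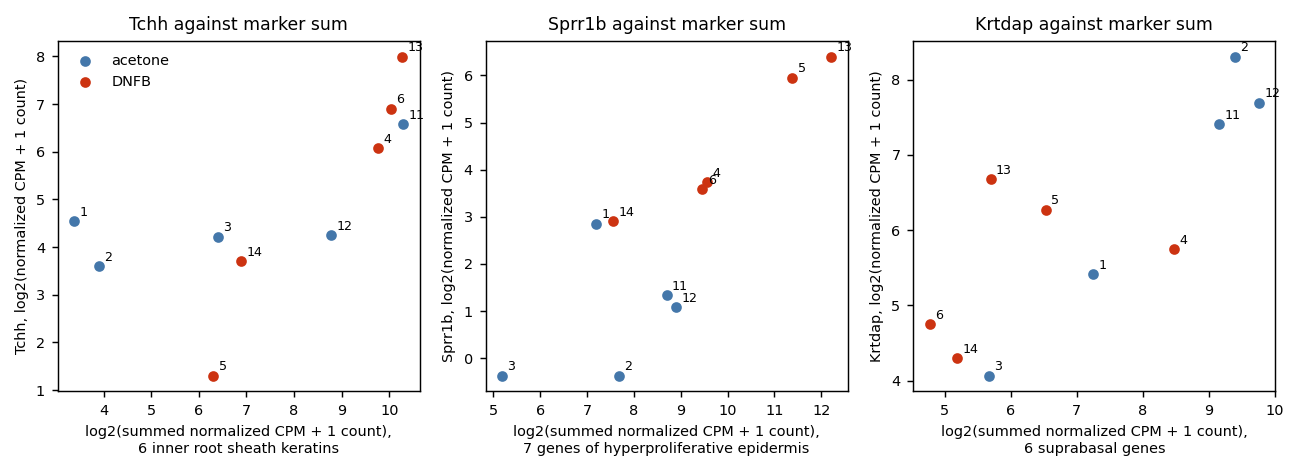
Tchh, Sprr1b and Krtdap in each skin library against the summed level of a marker list, both as log2 of normalized CPM plus 1 count of the median library; numbers are the label numbers, blue is acetone and red is DNFB. The 3 panels have Pearson's r of 0.69, 0.84 and 0.81 over 10 libraries, and DNFB library 13 has the highest level of Tchh and of Sprr1b.

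In the pancreas the members were close to undetected. No member passed the filter in caerulein against PBS (background 8.14% of 946 genes tested higher and 4.02% lower at the adjusted threshold), 42 of the 55 had at most 3 counts in every pancreas library and 19 had 0 in all 10, a result that allows at most 3 counts per library. Krtdap, Sprr1b and Lor had 0 counts in every pancreas library. Only 3 members exceeded 10 counts in any library, with Sprr2a1 and Sprr2a2 at up to 17.6 and 10.5 counts and Sbsn at up to 11. Asprv1 had 0 counts in all PBS libraries and 1, 8, 0, 3 and 2 counts in caerulein libraries 9, 10, 18, 19 and 20 (exact permutation p = 0.0476 on normalized values, 1 of 36 such tests under 0.05).

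Between the control tissues, the members that passed the filter in a fit of all 20 libraries did so through skin, so the next counts describe the choice and carry no support. At the adjusted threshold, 6 of these 15 had a higher level in acetone-treated skin (background 6.83%) and 0 in PBS-treated pancreas (background 3.71%), and at an unadjusted p under 0.05, 10 had a higher level in acetone-treated skin (background 17.8%). Krtdap had 0 counts in all PBS libraries, so its fold is not given, and the other 5 were Asprv1, also at 0 with PBS, Sprr1a, Cdsn, Sbsn and Dsg1a, the last 4 with log2 fold changes of 5.0, 4.81, 4.73 and 3.84. Flg and Sprr2a2 did not separate the tissues in the controls, at -0.30 (95% interval -2.03 to 1.42) and 0.56 (95% interval -1.39 to 2.5). In DNFB-treated skin against caerulein-treated pancreas, 14 of the 15 were higher (background 2.83%).

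The difference between the responses of skin and pancreas was fitted over the same 15 members, which passed the filter through skin while none did in pancreas, so its counts are a description too. No member passed the adjusted threshold in either direction (background 0.048% higher and 0.216% lower). At an unadjusted p under 0.05, 5 of 15 members had a positive difference, skin minus pancreas (background 6.32%), and 0 a negative one (background 12.2%). Flg had the lowest p, with a difference of 3.99 on the log2 scale (SE 1.19, edgeR adjusted p = 0.0857). It was followed by Sprr2a3 at 4.70, Sprr2a2 at 4.14, Ivl at 3.81 and Casp14 at 2.90. In skin alone, Ivl and Casp14 had log2 fold changes of only 0.06 and 0.44. In pancreas, Ivl had 4 counts over all PBS libraries and 1 over all caerulein libraries, and Casp14 had 4 and 3. The pancreas side of these differences rests on counts at or near the floor, with Flg at 1, 0, 2, 5 and 1 in PBS libraries 7, 8, 15, 16 and 17 and at 2, 0, 1, 1 and 5 in caerulein libraries 9, 10, 18, 19 and 20.

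The members were also compared by the sequence before their start sites, using RefSeq windows of 250 bases before to 50 after each start on GRCm38.p6, which were found for 50 of the 55 members. AP-1, a dimer of Fos and Jun proteins, binds a 7-base palindrome in many keratinocyte promoters. The letters TGANTCA, with the middle base left free, read the same on both strands. Binding was not tested, so they mark a letter pattern and not AP-1 sites. They were present in 17 of 50 members (34.0%) and in 7.81% of all 32851 windows. They were found for 9 of 14 Sprr genes and 0 of 20 Lce genes. The letters GGGNGTG, as bound by Klf factors, searched on both strands, were present in 8 members (16%) and in 29.2% of windows, and TTNNGCAA, like C/EBP sites and searched on both strands, in 9 (18%) and 10.8%. Genes of 1 cluster share ancestry, so these shares are descriptions. The stretches before the starts of Sprr1b, Flg and Krtdap are printed as examples of the match in 3 gene families described above, with the TGANTCA match in capitals. Each stretch stops before the first base of an exon annotated by GENCODE M21, which lies ahead of the RefSeq start, and the matches begin 101, 80 and 72 bases before the end of the stretch.
Sprr1b (chr3:92438790-92439029, minus strand): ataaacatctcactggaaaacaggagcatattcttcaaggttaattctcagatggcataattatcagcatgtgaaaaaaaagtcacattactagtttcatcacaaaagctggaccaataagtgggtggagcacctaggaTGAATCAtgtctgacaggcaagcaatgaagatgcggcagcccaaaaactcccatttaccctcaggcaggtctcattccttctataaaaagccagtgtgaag
Flg (chr3:93273296-93273522, plus strand): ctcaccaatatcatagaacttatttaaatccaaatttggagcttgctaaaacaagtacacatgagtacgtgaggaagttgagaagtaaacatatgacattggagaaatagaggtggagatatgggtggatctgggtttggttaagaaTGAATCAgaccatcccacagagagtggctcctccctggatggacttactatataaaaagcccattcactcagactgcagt
Krtdap (chr7:30787655-30787895, plus strand): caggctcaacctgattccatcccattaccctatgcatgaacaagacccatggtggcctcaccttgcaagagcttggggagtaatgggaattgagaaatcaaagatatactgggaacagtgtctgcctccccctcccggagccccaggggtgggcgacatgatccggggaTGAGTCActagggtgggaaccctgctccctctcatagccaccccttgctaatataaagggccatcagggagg
Sprr1b and Flg had higher means with DNFB and Krtdap a lower one. All 3 were printed because they hold a match, so their matches carry no weight. Of the members past the unadjusted threshold in skin, Flg is among the 17 with the letters, and Sprr2a2 and Dsg1a are not.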

How the data were processed

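RNA of 20 mouse samples was sequenced by Smart-Seq2. The authors mapped reads to mm10 (GRCm38) with STAR 2.5.3 and quantified genes with RSEM 1.3.1, as the submitters' processing notes and the methods state, and deposited expected counts per gene without normalization. The gene annotation is not given in the sources used here. The table spells the caerulein columns "Cerulein", and 0 columns of per-sample values were left unused. Groups came from the labels.

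Expected counts were rounded here, and names and coordinates were taken from GENCODE M21, which named 55144 of 55471 genes. Each tissue was fitted with edgeR 4.0.16 in R 4.3.3 (filterByExpr with a minimum count of 10, TMM, glmQLFTest, Benjamini-Hochberg adjustment over all genes tested, threshold 0.05), and a fit of all 20 libraries gave the contrasts between tissues. Members that failed the filter were tested by exact permutation, two-sided (SciPy 1.17.1), on log2 normalized CPM plus 1 count of the median library. Intervals are at 95% confidence. DESeq2 1.42.0 was an alternative. The 11 satellite-like genes are predicted genes with 50% or more of their 15-base words in common with Gm10800, Gm10801 or Gm21738. The fits were tested on simulated data.

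Values per library are given for every member with an unadjusted p under 0.05 in skin and for the 20 members with the highest mean in skin. The members and gene lists were chosen with earlier results of these data known. Depth was 70035 to 1074235 counts outside the satellite-like genes. Precision was limited by these counts and by the spread between libraries.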

Additional observations from a re-analysis of the deposited data

Results flagged for a closer look

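In each of the 2 skin groups, the 20 members with the highest mean level were checked for a single library far from the other 4, by Dixon's test, which sets the gap to the next library against the whole spread. For normal and independent values, chance marks about 1 in 20 groups, or 2 of these 40, and 9 were marked. The values were not log-transformed and the 40 groups share the same libraries, so the 2 is not a fair yardstick for the 9. DNFB library 13 stood apart for 4 members, at 259.7 normalized CPM for Sprr1a (the others 23.8 to 41.1), 67.4 for Cdsn (11.2 to 15.3), 46.2 for Crnn (1.70 to 11.9) and 34.9 for Cnfn (4.17 to 5.23). DNFB library 5 was high for Sprr2a1 at 178 (6.73 to 43.5), DNFB library 4 for Casp14 at 45.2 (8.22 to 17) and DNFB library 14 for Flg2 at 14.5 (2.99 to 5.10). Among the controls, acetone library 11 was high for Tchh at 94.8 (11.4 to 22.6), and acetone library 1 for Sprr1b at 6.44 (0 to 1.76), the latter on 2 counts.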

How the results depend on the processing

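No paired analysis was possible because each label number, 1 to 20, belongs to a single library and none is shared by groups. In skin, 0 members were higher at the adjusted threshold. This became 1 without a count filter and 1 with DESeq2, in both cases Sprr1b. It became 3 in libraries 11 to 20 only (Cnfn, Rptn and Sprr2a1, 2 against 2 libraries, background 6.87%). There Rptn passed the filter through its DNFB libraries, since acetone libraries 11 and 12 held 9 and 3 counts. Its call there carries no support, and the split of reads to Sprr2a1 is uncertain. Leaving out each library gave 0 to 1, with Sprr1b called without acetone library 3 (background 0.223%) or DNFB library 14 (background 0.0711%). In those fits Sprr1b passed the filter through its DNFB libraries, so its calls there carry no support. The 2 members higher at the unadjusted threshold became 0 with library totals only (background 1.93%), 0 with at least 10 counts in every library (1.29%), 11 without a filter (5.18%), 5 with DESeq2 (2.47%), 5 in libraries 1 to 10 only (4.56%), 5 in libraries 11 to 20 only (16.6%) and 2 to 6 with each library left out (1.92 to 12.1%, 4 or more without acetone libraries 1, 2, 3 or 11 or DNFB library 14). The 1 lower became 0 with library totals only (0.33%), 0 with at least 10 counts in every library (4.52%), 3 with DESeq2 (1.69%), 2 in libraries 11 to 20 only (7.52%), 2 in the fit of all 20 libraries (2.69%) and 1 to 3 with each library left out (2.0 to 4.91%, 2 or 3 without acetone libraries 1, 3 or 12 or DNFB libraries 13 or 14). In pancreas, no filter gave 1 higher (Asprv1, background 11.2%) and 1 lower (Lce1k, background 4.05%) at the unadjusted threshold instead of 0. The 6 members higher in control skin than in control pancreas became 14 with library totals only, where 74.5% of all genes were higher, and 2 with the 10 control libraries alone (background 12%), and the 10 at the unadjusted threshold became 2 with the latter (background 17.3%). In the difference between responses, 0 higher became 2 with DESeq2 (Sprr1b and Flg, background 1.67%). Sprr1b had 0 counts in every pancreas library, so it has no pancreas response to compare and its call carries no support. With each library left out the count was 0 to 1 (Flg without acetone library 3, PBS library 8 or caerulein library 9). The 5 at the unadjusted threshold became 0 with library totals only (background 0.648%). The 0 lower at that threshold became 2 with library totals only, where 40.1% of all genes were lower, and 1 with DESeq2 (background 6.66%). The cause of these shifts was not tested.

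Signs of 4 members without a call were reversed. Cdsn, at -0.04, had log2 fold changes of 0.047 without satellite-like genes, 0.51 with the label number range as covariate, 1.56 in libraries 1 to 10, 0.067 in the fit of all 20 libraries and -0.89 to 0.52 with each library left out. Ivl, at 0.06, had -0.24 with library totals only, -0.16 without a filter, -0.58 in libraries 11 to 20 and -0.23 to 0.48 with each library left out. Casp14 had -0.68 in libraries 11 to 20 and -0.18 to 0.82 with each library left out, negative without DNFB library 4. Flg2 had 0.72 in libraries 11 to 20. Depth limits the Lce and minor Sprr2 genes most, since 1 count in an acetone library was worth up to 3.22 normalized CPM.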
